A study of Homo sapiens with 6 samples.

Results

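The AP-1 and early growth response genes examined here were *FOS*, *FOSB*, *FOSL1*, *FOSL2*, *JUN*, *JUNB*, *JUND*, *ATF3*, *EGR1*, and *EGR2*. They were taken by gene name from a table of raw gene counts, in which 10 of 60623 genes were members, and all 10 were among the 13966 genes with enough counts to be tested. The samples were TC28a2 cells, an immortalized human chondrocyte line, exposed either to 2 μM mocetinostat, an inhibitor of class I histone deacetylases, or to its solvent DMSO for 24 hours. Each condition had 3 samples, which share the same cell line and no other agent. The study describes them as coming from 3 independent experiments, and p-values measure the spread between these samples. The comparison asks which genes of this group differed in expression between mocetinostat- and DMSO-treated chondrocytes.

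AP-1 is a dimer of basic leucine zipper (bZIP) proteins. Fos proteins need a Jun partner, whereas Jun proteins can also pair with themselves. The dimers bind sites of the form TGANTCA, in which the middle base N is mostly C or G. EGR proteins are zinc finger factors that bind GC-rich DNA. Most of these genes are immediate-early genes, which growth factors and stress switch on within minutes through MAP kinases and the factors SRF, ELK1, and CREB, without new protein synthesis. In cartilage, AP-1 is best known for driving matrix-degrading enzymes such as *MMP13*.

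Mocetinostat significantly upregulated 6 of the 10 genes (*FOS*, *FOSB*, *JUN*, *ATF3*, *EGR1*, and *EGR2*) and downregulated 1 (*FOSL1*). A call needed a Benjamini-Hochberg adjusted p below 0.05 in edgeR's quasi-likelihood test together with a log2 fold change beyond 1 in either direction. By this rule 20.2% of all genes tested were upregulated and 8.18% were downregulated, 28.4% in all. The other 3 genes (*FOSL2*, *JUNB*, and *JUND*) passed the p threshold with smaller increases. In this fit all 10 genes therefore had an adjusted p below 0.05, 9 of them higher with mocetinostat, where 32.9% of all genes tested were higher and 31.4% were lower at this p, 64.3% in all. The median log2 fold change was 1.03 over the 10 genes and 0.00 over all genes tested. No member overlapped between the conditions, and 66.5% of all genes tested did not overlap either (33.7% higher and 32.8% lower with mocetinostat). In bulk RNA, a change in the share of cells that express a gene and a change in RNA per cell cannot be told apart.

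**Figure D1:**
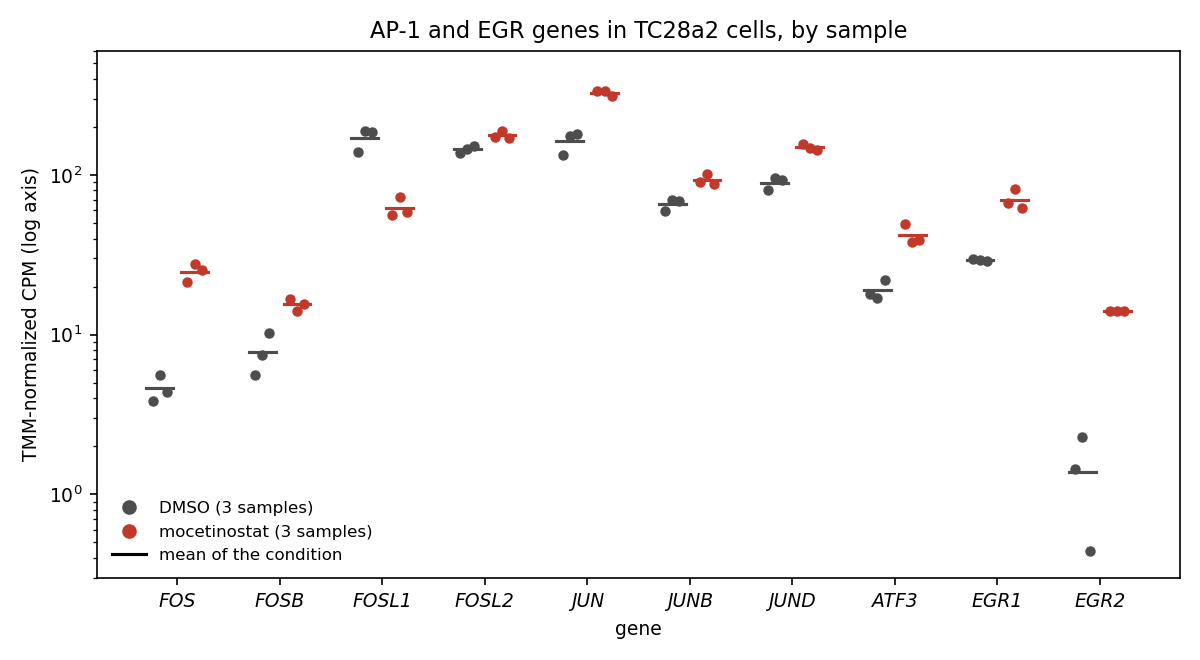
TMM-normalized CPM (log axis) of the 10 genes in each sample, with DMSO samples in grey, mocetinostat samples in red, and a line at the mean of each condition. *FOSL1* is the gene whose mocetinostat samples lie below its DMSO samples, and *EGR2* and *FOS* show the widest gaps between the conditions.

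The libraries held 4873426 to 11031132 counts in DMSO and 1619344 to 5089542 in mocetinostat. The same relative level therefore gave fewer counts in most treated samples. For *EGR2* and *FOS*, which rose from low levels, the DMSO samples nevertheless held the fewer counts. Levels are given as CPM, the counts of a gene relative to the total of its library after TMM scaling, which adjusts libraries for composition. Replicates of a condition differed by more than counting noise, with a common biological coefficient of variation of 9.3%. The chondrocyte factor *SOX9* was abundant in both conditions (106 ± 13.5 CPM in DMSO and 178 ± 14.3 CPM with mocetinostat, SD, n = 3), whereas *SOX6*, *COL9A1*, *COL11A1*, and *PRG4* had too few counts to be tested. Of 9 chondrocyte markers tested, 6 were upregulated, and the summed CPM of all 13 was 121 to 145 in DMSO and 267 to 309 with mocetinostat. *SOX9* made up most of this sum. Every other tested chondrocyte marker had a mean of at most 5.26 CPM in DMSO (*HAPLN1*), with *COL2A1* at 2.19 and *ACAN* at 4.68. With mocetinostat *COL2A1* and *ACAN* had means of 28.5 and 33.0 CPM. Summed CPM of immune markers stayed between 0 and 2.27, with *CD3E* at 0 counts in every sample. Sums of 4 epithelial markers, led by *KRT8*, ranged from 892 to 1074 in DMSO and from 1919 to 1972 with mocetinostat, with 3 of 4 upregulated. The corresponding ranges were 12.3 to 16.0 and 63.3 to 81.8 for neuronal markers (2 of 2 tested upregulated), 4.94 to 7.02 and 16.0 to 22.6 for endothelial markers (2 of 3), and 4617 to 5582 and 4273 to 4654 for fibroblast markers (2 of 5 upregulated, 1 downregulated). These sums moved with the treatment, and their part in the results was not tested.

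The sequences before the start sites are shown for 5 of the upregulated genes, *FOS*, *JUN*, *ATF3*, *EGR1*, and *EGR2*. For several of these, elements that answer to MAP kinases and CREB are known near the start. Whether such elements had a part in the increases was not tested. *FOSB*, also upregulated, is not shown, and its window matched TATAAA alone. Each line gives 250 bases upstream of a RefSeq start on GRCh38, read 5′ to 3′ on the strand of the gene. The windows are chr14:75278578-75278827 on the plus strand for *FOS*, chr1:58784048-58784297 on the minus strand for *JUN*, and chr1:212565157-212565406 on the plus strand for the first listed start of *ATF3*. For *EGR1* the window is chr5:138465229-138465478 on the plus strand, and for the 3rd listed start of *EGR2* it is chr10:62816367-62816616 on the minus strand. Capitals mark matches to the motifs searched.
FOS: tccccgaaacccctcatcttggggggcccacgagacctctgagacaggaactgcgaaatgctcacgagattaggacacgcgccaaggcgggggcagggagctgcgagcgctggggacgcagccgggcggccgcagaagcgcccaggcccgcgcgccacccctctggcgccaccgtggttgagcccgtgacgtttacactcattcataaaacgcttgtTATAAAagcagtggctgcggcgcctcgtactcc
JUN: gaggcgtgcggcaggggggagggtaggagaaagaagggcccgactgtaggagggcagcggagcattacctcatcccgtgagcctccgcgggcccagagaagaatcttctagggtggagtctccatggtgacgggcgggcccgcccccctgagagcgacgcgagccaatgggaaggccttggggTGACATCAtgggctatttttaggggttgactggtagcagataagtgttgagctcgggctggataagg
ATF3: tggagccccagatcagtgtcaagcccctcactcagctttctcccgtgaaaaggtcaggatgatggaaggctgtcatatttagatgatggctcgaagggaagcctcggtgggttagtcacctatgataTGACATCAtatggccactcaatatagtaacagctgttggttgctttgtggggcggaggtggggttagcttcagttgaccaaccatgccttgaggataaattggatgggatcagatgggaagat
EGR1: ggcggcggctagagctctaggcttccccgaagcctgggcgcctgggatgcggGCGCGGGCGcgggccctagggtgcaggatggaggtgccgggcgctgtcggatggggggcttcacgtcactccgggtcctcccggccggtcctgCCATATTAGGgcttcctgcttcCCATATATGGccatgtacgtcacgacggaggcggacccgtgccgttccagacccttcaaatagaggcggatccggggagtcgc
EGR2: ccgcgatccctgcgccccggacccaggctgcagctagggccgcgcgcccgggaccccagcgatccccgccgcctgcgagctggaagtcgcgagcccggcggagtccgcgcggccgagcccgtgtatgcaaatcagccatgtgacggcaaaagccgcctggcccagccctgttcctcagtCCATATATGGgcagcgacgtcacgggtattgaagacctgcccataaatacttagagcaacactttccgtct

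Both strands were searched for TGANTCA (AP-1), TGACNTCA (the element bound by CREB, ATF, and Jun dimers), GCGNGGGCG (EGR), the core promoter element TATAAA, and the CArG box, which SRF binds. In the search N was any base, so that TGANTCA was wider than the AP-1 site. The element TGACATCA stood at positions -67 to -60 of *JUN* and -123 to -116 of *ATF3*, counted from the start site, and TGACGTCA stood at -200 to -193 of *JUND*. SRF at CArG boxes relays serum and MAP kinase signals to immediate-early genes. Within the windows searched, CArG boxes were found at -105 to -96 and -83 to -74 of *EGR1* and at -71 to -62 of the 3rd listed *EGR2* start. The windows of the other *EGR2* starts matched none of the motifs. The *EGR1* window also held the EGR motif at -198 to -190. The letters TATAAA lay at -33 to -28 of *FOS*, -30 to -25 of *FOSB*, and -31 to -26 of *JUNB*. They also occurred at -230 to -225 of the second *ATF3* start, much farther from the start. Among the 9 member genes with an entry, 12 windows were searched. Counted by window, CArG boxes were present in 2 of these 12 (16.7%), the TGACNTCA element in 3 (25.0%), and TATAAA in 4 (33.3%). The EGR motif was present in 1 window (8.33%) and TGANTCA in 0. Of all 35116 windows in the table, 1.16% held a CArG box, 6.87% TGACNTCA, 10.7% TATAAA, 8.41% the EGR motif, and 6.57% TGANTCA. Other immediate-early genes, a list given below, had 16 windows. TATAAA was present in 31.2% of these, TGACNTCA and the EGR motif in 18.8% each, and the CArG box and TGANTCA in 0. A match describes the letters only, and no binding was measured. Sites farther upstream than these windows, or with letters that differ from the motifs, were not searched for. A window without a match therefore does not show that the gene lacks such an element. This applies to *FOS*, whose window matched TATAAA alone.

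*FOS* (GRCh38 14:75278826-75282230, 4 exons), which encodes the founding Fos protein with a strong transactivation domain, was among the least expressed members in DMSO and rose the most within its family. Its levels were 3.86, 5.58, and 4.39 CPM in the DMSO samples and 21.4, 27.7, and 25.5 CPM in the mocetinostat samples, from 27 to 43 and 45 to 109 counts, respectively. Every treated sample lay far above every DMSO sample. The mean rose from 4.61 ± 0.881 to 24.9 ± 3.16 CPM (SD, n = 3), a 5.43-fold increase (log2 fold change 2.44 ± 0.25 SE, adjusted p = 8.63e-14 in edgeR). This call held under all 15 alternative settings, at log2 fold changes between 2.19 and 2.97.

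*FOSB* (19:45467995-45475179, 4 exons), the other Fos gene with a transactivation domain, rose less. DMSO samples had 5.56, 7.44, and 10.2 CPM, and mocetinostat samples had 16.7, 14.1, and 15.6 CPM. The treated samples were close to each other and the DMSO samples were spread, without overlap. *FOSB* was 2.07-fold higher with mocetinostat (7.75 ± 2.35 to 15.5 ± 1.29 CPM, log2 fold change 1.05 ± 0.26 SE, adjusted p = 0.000254 in edgeR). Its size sat at the fold threshold, and the call was lost under 7 of the 15 alternatives, including DESeq2 (log2 fold change 0.99). Adjusted p lay between 1.29e-06 and 0.719 over all of them, the latter under glmTreat, which tests the fold threshold itself. Among the alternatives that test for any difference, the highest adjusted p was 0.168 in edgeR, after thinning the libraries to equal depth. Without DMSO 1 the log2 fold change was 0.79, without DMSO 2 it was 1.00, and without mocetinostat 1 it was 0.96, each short of the threshold.

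*FOSL1* (11:65892049-65900573, 4 exons) encodes FRA1, a Fos protein that lacks that transactivation domain and is a usual AP-1 subunit of mesenchymal and transformed cells. It was the downregulated member. DMSO samples had 140.0, 189, and 186 CPM, whereas mocetinostat samples had 56.3, 72.5, and 58.8 CPM. The highest treated sample was well below the lowest DMSO sample. Expression fell 2.79-fold, from 171 ± 27.3 to 62.5 ± 8.77 CPM (log2 fold change -1.48 ± 0.11 SE, adjusted p = 4.6e-19 in edgeR). The call held under every alternative except scaling each library to its *GAPDH* count, where the log2 fold change was -0.95. *GAPDH* itself was lower with mocetinostat in the TMM scaling (log2 fold change -0.53, adjusted p = 2.58e-12 in edgeR), so that scaling to it shifted the median of all genes by 0.53.

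*FOSL2* (2:28392448-28417317, 4 exons), which encodes the related FRA2, was not called. Its samples had 137, 146, and 152 CPM in DMSO and 173, 189, and 171 CPM with mocetinostat, and the conditions were close to each other without overlapping. The difference was 1.22-fold (145 ± 8.03 to 178 ± 10.1 CPM, log2 fold change 0.29 ± 0.09 SE, adjusted p = 0.00471 in edgeR). Without a filter on low counts it was no longer past the p threshold (log2 fold change 0.04, adjusted p = 0.806 in edgeR). Over the alternatives that test for any difference, which leaves out glmTreat, adjusted p lay between 2.36e-09 and 0.806.

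All 3 Jun genes were higher with mocetinostat, by 1.41- to 2.02-fold, and *JUN* passed the fold threshold. *JUN* (1:58776845-58784048, 1 exon) encodes c-Jun, the most active Jun partner, which can switch on its own gene, known to occur through the TGACATCA element in the sequence shown. It measured 133, 175, and 181 CPM in DMSO and 337, 334, and 314 CPM with mocetinostat. The treated samples were tightly grouped above all DMSO samples. The mean rose 2.02-fold from 163 ± 26.5 to 328 ± 12.2 CPM (log2 fold change 1.02 ± 0.09 SE, adjusted p = 1.76e-16 in edgeR). The increase itself was far larger than the spread between replicates, but the call depended on a fold close to the threshold. It was lost under 6 of 15 alternatives. Adjusted p lay between 8.04e-31 and 0.731, the latter under glmTreat, which tests the fold threshold itself. Among the alternatives that test for any difference, the highest adjusted p was 4.46e-06 in edgeR, after thinning. DESeq2 gave a log2 fold change of 0.98, as did leaving out mocetinostat 1 or mocetinostat 2, and leaving out DMSO 1 gave 0.86.

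*JUND* (19:18279694-18281622, 1 exon), a Jun gene expressed steadily in many resting cells, measured 80.3, 95.9, and 93.0 CPM in DMSO and 156, 148, and 143 CPM with mocetinostat. Its conditions were well apart. It was 1.67-fold higher (89.7 ± 8.26 to 149 ± 6.65 CPM, log2 fold change 0.74 ± 0.10 SE, adjusted p = 1.43e-09 in edgeR), below the fold threshold.

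*JUNB* (19:12791486-12793315, 1 exon), whose protein often tempers the activity of c-Jun, measured 59.3, 70.0, and 68.4 CPM in DMSO and 90.3, 101, and 87.6 CPM with mocetinostat. All treated samples were higher, by a smaller margin than for the other Jun genes. The difference was 1.41-fold (65.9 ± 5.78 to 92.9 ± 7.00 CPM, log2 fold change 0.49 ± 0.12 SE, adjusted p = 0.000148 in edgeR). Of the *JUNB* exon bases, 14.2% overlap exons of *HOOK2* on the opposite strand, and reads there cannot be assigned if the counting ignored strand, which the sources used here do not state. Without a filter the *JUNB* difference missed the p threshold (log2 fold change 0.24, adjusted p = 0.14 in edgeR). Over the alternatives that test for any difference, which leaves out glmTreat, adjusted p lay between 1.01e-09 and 0.14. Scaling to *GAPDH* brought both *JUNB* (log2 fold change 1.02) and *JUND* (1.27) over the fold threshold.

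*ATF3* (1:212565334-212620777, 4 exons) encodes a bZIP factor that pairs with Jun proteins and is induced by many kinds of stress. Its levels were 18.0, 16.9, and 22.1 CPM in DMSO and 49.6, 38.1, and 39.1 CPM with mocetinostat. The lowest treated sample was above the highest DMSO sample by a clear margin. *ATF3* was upregulated 2.27-fold (19.0 ± 2.72 to 42.2 ± 6.35 CPM, log2 fold change 1.18 ± 0.16 SE, adjusted p = 2.67e-09 in edgeR). The call was lost under a test of the fold threshold itself (glmTreat, adjusted p = 0.205) and without a filter on low counts (log2 fold change 0.93), with adjusted p between 9.18e-12 and 0.205 over the 15 alternatives.

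*EGR1* (5:138465479-138469303, 2 exons), an immediate-early gene of growth factor and stress signals whose sequence shown holds a pair of CArG boxes, was even among the DMSO samples, with 29.9, 29.5, and 29.0 CPM, and more spread with mocetinostat, with 66.9, 81.2, and 61.7 CPM. Every treated sample stood well above the DMSO level. *EGR1* was upregulated 2.34-fold (29.5 ± 0.474 to 69.9 ± 10.1 CPM, log2 fold change 1.23 ± 0.13 SE, adjusted p = 1.08e-12 in edgeR). As for *ATF3*, the call was lost under glmTreat (adjusted p = 0.0694) and without a filter (log2 fold change 0.97), with adjusted p between 4.24e-16 and 0.0694 over the alternatives.

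*EGR2* (10:62811996-62819167, 2 exons), which is best known for its role in myelinating Schwann cells, had the largest fold change of the 10 genes. The DMSO samples held 16, 11, and 3 counts (1.44, 2.27, and 0.439 CPM), and the mocetinostat samples held 71, 23, and 34 counts (14.0, 14.1, and 14.0 CPM). The treated samples were nearly identical, while the DMSO samples rested on few counts and varied widely. The mean rose from 1.38 ± 0.918 to 14.0 ± 0.0977 CPM, a 10.4-fold difference (log2 fold change 3.38 ± 0.38 SE, adjusted p = 3.27e-12 in edgeR). The call held in the 14 alternatives that tested the gene, at log2 fold changes between 2.97 and 3.92, and requiring 10 counts in every sample removed it. A further gene on the same strand, ENSG00000289487, shares 3.91% of the *EGR2* exon bases.

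**Figure D2:**
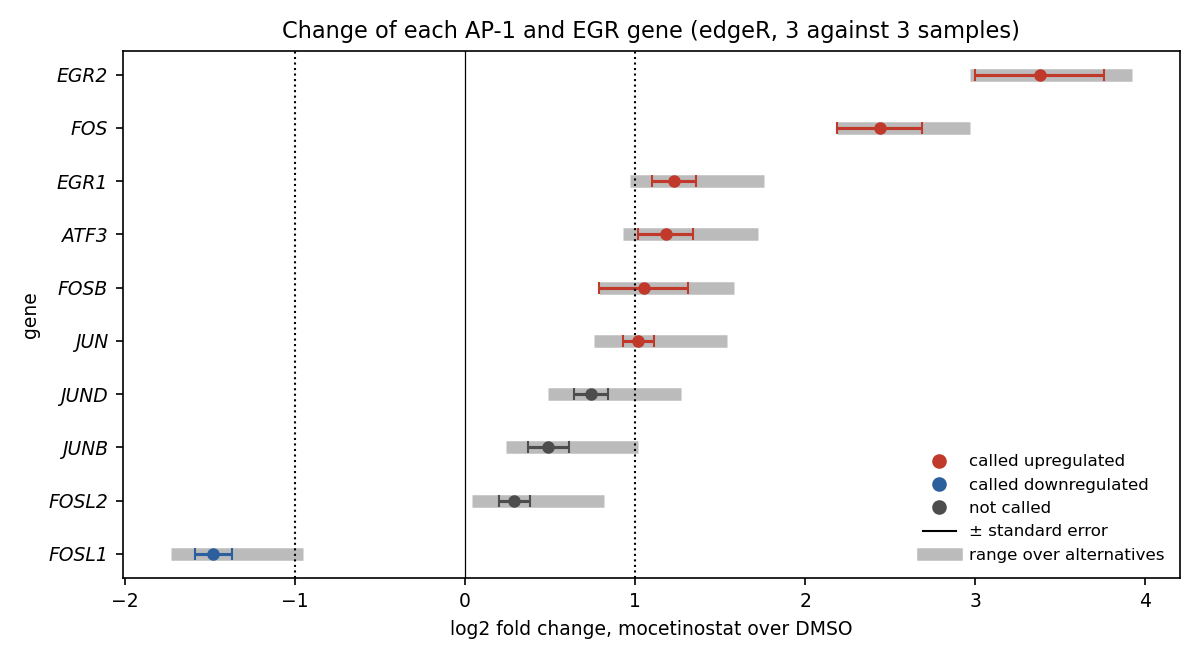
Log2 fold change of each gene, mocetinostat over DMSO, with its standard error from edgeR as thin bars (red for upregulated, blue for downregulated, dark grey for not called) and the range over the alternative settings (15, or 14 for *EGR2*) as wide grey bars. Dotted lines mark the fold threshold, and the ranges of *FOS* and *EGR2* lie beyond it, that of *FOSL2* lies short of it, and those of the other 7 genes cross it.

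The samples were not alike in all genes. DMSO 1, the deepest library, was the lowest DMSO sample for each of the 4 Fos and 3 Jun genes, and mocetinostat 2, the shallowest, was the highest treated sample for *FOS*, *FOSL1*, *FOSL2*, *JUNB*, and *EGR1*. Count ratios of gene pairs within a sample do not depend on how libraries are scaled, and they were compared for 6 pairs. With 3 samples against 3, the exact two-sided permutation test cannot give a p below 0.10, and each of the 6 pairs reached that value because no ratio overlapped between conditions (adjusted over the 6 pairs, p = 0.10).

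The *FOSL1* to *FOSL2* count ratio was 1.02, 1.29, and 1.22 in DMSO and 0.325, 0.383, and 0.344 with mocetinostat, a 3.35-fold lower ratio. Conversely, the *FOS* to *FOSL2* ratio was 0.0283, 0.0381, and 0.0288 in DMSO and 0.124, 0.146, and 0.149 with mocetinostat, which is 4.44-fold higher. The *FOSB* to *FOSL2* ratio was 1.68-fold higher, with its highest DMSO value (0.0671) next to its lowest treated value (0.0747). Relative to *FOSL2*, *FOSL1* was lower and *FOS* and *FOSB* were higher in every treated library. The Jun genes differed less among themselves, with the *JUN* to *JUND* ratio 1.22-fold higher and the *JUNB* to *JUND* ratio 1.18-fold lower. The *EGR1* to *EGR2* ratio was 20.8, 13.0, and 66.0 in DMSO and 4.79, 5.74, and 4.41 with mocetinostat, a 5.28-fold lower ratio, with the value of 66.0 resting on 3 *EGR2* counts. Without that sample, DMSO 3, the ratio was 3.32-fold lower, an alternative chosen after seeing the data.

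To compare levels between genes, CPM was divided by the merged exon length in kilobases. On this scale *FOSL1* was the most abundant of the 10 genes in DMSO (90.9 ± 14.4 CPM per kilobase), followed by *JUND* (46.5 ± 4.28), *JUN* (45.0 ± 7.31), and *JUNB* (36.0 ± 3.16). *JUND* and *JUN* overlapped, as did *JUN* and *JUNB*. *FOSL2* (20.3 ± 1.12), *EGR1* (9.39), and *ATF3* (4.75) came next, and *FOS* (1.45), *FOSB* (1.39), and *EGR2* (0.373) were lowest, of which *FOS* and *FOSB* overlapped. *FOSL1* thus led by a wide margin without treatment. With mocetinostat *JUN* led at 90.6 CPM per kilobase, followed by *JUND* (77.2), *JUNB* (50.8), *FOSL1* (33.1), *FOSL2* (24.8), and *EGR1* (22.3), of which *FOSL2* and *EGR1* alone overlapped. *ATF3* (10.6), *FOS* (7.80), *EGR2* (3.78), and *FOSB* (2.79) were lowest. The places of *ATF3* and *JUN* depended on the length used. With the canonical transcript *ATF3* measured 9.79 CPM per kilobase in DMSO and 21.8 with mocetinostat, next to *EGR1* at 9.39 and 22.3, and *JUN* in DMSO measured 50.1, ahead of *JUND* at 46.5.

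As shares of the Fos family on the per-kilobase scale, *FOSL1* made up 77.7%, 80.9%, and 80.1% in the DMSO samples and 46.8%, 50.5%, and 47.3% in the mocetinostat samples. *FOSL1* thus stayed the most abundant Fos gene while its share fell from 79.6% ± 1.67 to 48.2% ± 2.01 (SD, n = 3). The share of *FOSL2* was 18.0% in DMSO and 36.3% with mocetinostat, that of *FOS* was 1.27% and 11.4%, and that of *FOSB* was 1.21% and 4.12%. The summed level of the 4 Fos genes was 95.5, 124, and 123 CPM per kilobase in DMSO and 63.7, 76.1, and 65.9 with mocetinostat. The sum of the 3 Jun genes moved the other way, from 111, 136, and 136 to 223, 224, and 209 CPM per kilobase. In every treated sample the Fos sum was below, and the Jun sum above, all DMSO samples. Within the Jun family, shares shifted little, with *JUN* at 35.2% and 41.4%, *JUNB* at 28.3% and 23.2%, and *JUND* at 36.5% and 35.3%, the last with overlapping samples. *EGR2* made up 3.76% ± 2.43 of the *EGR1* and *EGR2* sum in DMSO and 14.7% ± 1.65 with mocetinostat. These shares describe levels of mRNA and got no test.

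**Figure D3:**
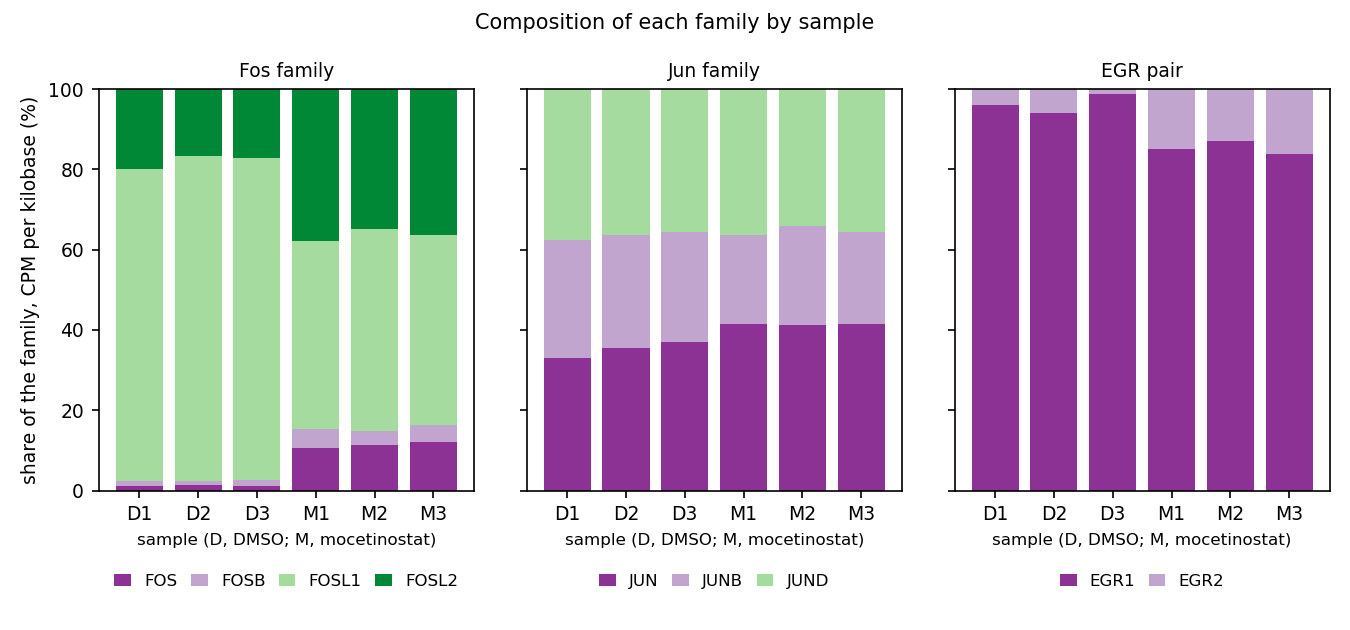
Shares (%) of each gene in the summed CPM per kilobase of the Fos family, the Jun family, and *EGR1* with *EGR2*, for each of the 6 samples. The *FOSL1* share is near 80% in all DMSO samples and near 48% in all mocetinostat samples, while the Jun shares differ less.

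The genes that act with or upstream of these factors were counted from lists chosen by their known roles. Earlier results of these data were known when the lists were chosen, so their counts and medians are descriptive and got no test. Beside each list stand the shares over all genes tested, 20.2% upregulated and 8.18% downregulated (32.9% higher and 31.4% lower by adjusted p). Of the bZIP genes whose products can pair with AP-1 proteins or share their sites, 10 of 12 were tested, 4 were upregulated, and 0 were downregulated (5 higher and 3 lower by adjusted p, median log2 fold change 0.45). Among the upregulated genes were *MAF* (1.26 ± 1.13 to 22.1 ± 1.69 CPM, log2 fold change 4.24) and *MAFF* (26.2 ± 9.20 to 68.5 ± 3.04 CPM, 1.44), with edgeR adjusted p values of 4.26e-17 and 7.03e-13. The *MAF* call held under every alternative that tested it, but its DMSO level rested on 3, 5, and 17 counts, and its log2 fold change was 3.51 without DMSO 1, 5.32 without DMSO 3, and 8.07 after thinning the libraries to equal depth. These encode Maf proteins, and *MAF* has a known role in hypertrophic chondrocytes. *ATF7* (log2 fold change -0.66), *MAFG* (-0.39), and *ATF2* (-0.30) were lowest and not called, and *MAFG* and *ATF2* were above 0 when libraries were scaled to *GAPDH*. The *ATF7* samples overlapped between conditions, and 16.1% of its exon bases are shared with *ATF7-NPFF* on the same strand. A further gene, ENSG00000257550, overlaps 26.8% of them on the opposite strand.

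Among the relatives and corepressors of the EGR proteins, *EGR3* was upregulated (2.42 ± 0.677 to 8.67 ± 2.82 CPM, log2 fold change 1.86 ± 0.37 SE, adjusted p = 9.07e-06 in edgeR). *EGR4* had 0 to 4 counts per sample and was not tested. *NAB1* and *NAB2* encode corepressors that dampen EGR activity. *NAB1* had a log2 fold change of 0.51 (adjusted p = 0.001 in edgeR), while *NAB2* was at -0.33 (adjusted p = 0.0775) with overlapping samples, and above 0 under *GAPDH* scaling and when libraries were thinned to equal depth. Thus 1 of 3 tested genes of this list was upregulated and 0 were downregulated (2 higher and 0 lower by adjusted p, median 0.51), against 20.2% and 8.18% of all genes tested.

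Most of the upstream factors and kinases, which relay signals to the members, were not called. All 22 genes were tested, with 1 upregulated and 1 downregulated (6 higher and 11 lower by adjusted p), against 20.2% and 8.18% of all genes tested. The median log2 fold change of the list was -0.26. *RPS6KA5*, a kinase of CREB and ATF1, was the upregulated gene (9.88 ± 1.74 to 27.2 ± 2.66 CPM, log2 fold change 1.42, adjusted p = 9.93e-09 in edgeR). *ATF1*, a relative of CREB, was the downregulated gene (30.1 ± 3.89 to 12.5 ± 3.47 CPM, log2 fold change -1.23, adjusted p = 1.38e-07 in edgeR). It lost its call under *GAPDH* scaling and glmTreat, with adjusted p between 7.14e-13 and 0.198 over the alternatives, the latter under glmTreat. *RPS6KA1*, a kinase of the ERK cascade (log2 fold change 0.92), and *MRTFA*, a coactivator of SRF (0.62), were the next highest, and *MAP2K4*, a kinase of the JNK cascade (-0.85), was the next lowest.

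Of 21 other immediate-early genes, 12 were upregulated and 0 were downregulated (18 higher and 1 lower by adjusted p), against 20.2% and 8.18% of all genes tested. The median log2 fold change of the list was 1.11. Among those with at least 10 CPM in a condition, the highest were *ARC* (1.75 ± 0.778 to 23.0 ± 3.02 CPM, log2 fold change 3.77), *NR4A3*, an orphan nuclear receptor (2.25 ± 0.814 to 13.8 ± 4.03 CPM, 2.75), and *RHOB*, a small GTPase (32.8 ± 4.16 to 127 ± 4.24 CPM, 1.97). Their edgeR adjusted p values were 4.86e-18, 9.9e-11, and 3.53e-24, and after thinning *ARC* had a log2 fold change of 4.75. At the other end were *MYC* (log2 fold change -0.26, adjusted p = 0.011 in edgeR) and *MCL1* (-0.14, adjusted p = 0.154), both above 0 under *GAPDH* scaling, and *KLF10* (0.12, adjusted p = 0.392), which was below 0 without a filter.

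Among 25 genes with described AP-1 or EGR1 sites, 13 were upregulated and 1 was downregulated (20 higher and 4 lower by adjusted p), against 20.2% and 8.18% of all genes tested. The median log2 fold change of the list was 1.10. *PTGS2*, the inducible cyclooxygenase, was measured at 3.07 ± 1.40 CPM in DMSO and 139 ± 1.28 CPM with mocetinostat (log2 fold change 5.44, adjusted p = 2.21e-40 in edgeR). *PTGES*, a prostaglandin E synthase (1.30 ± 0.309 to 30.3 ± 9.21 CPM, log2 fold change 4.61), and *MMP13*, a collagenase of cartilage (4.18 ± 2.08 to 94.1 ± 5.28 CPM, 4.39), followed, with edgeR adjusted p values of 7.47e-23 and 4.98e-34. After thinning, the log2 fold change of *MMP13* was 5.12. *LIF*, a cytokine of the interleukin-6 family, was the downregulated gene (179.8 ± 24.7 to 54.0 ± 11.3 CPM, log2 fold change -1.71, adjusted p = 7.31e-22 in edgeR). *PLAU*, the urokinase gene (-0.64), and *TGFB1* (-0.39, and 0.14 under *GAPDH* scaling) were lower without a call. Binding of the factors to these genes was not measured.

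**Figure D4:**
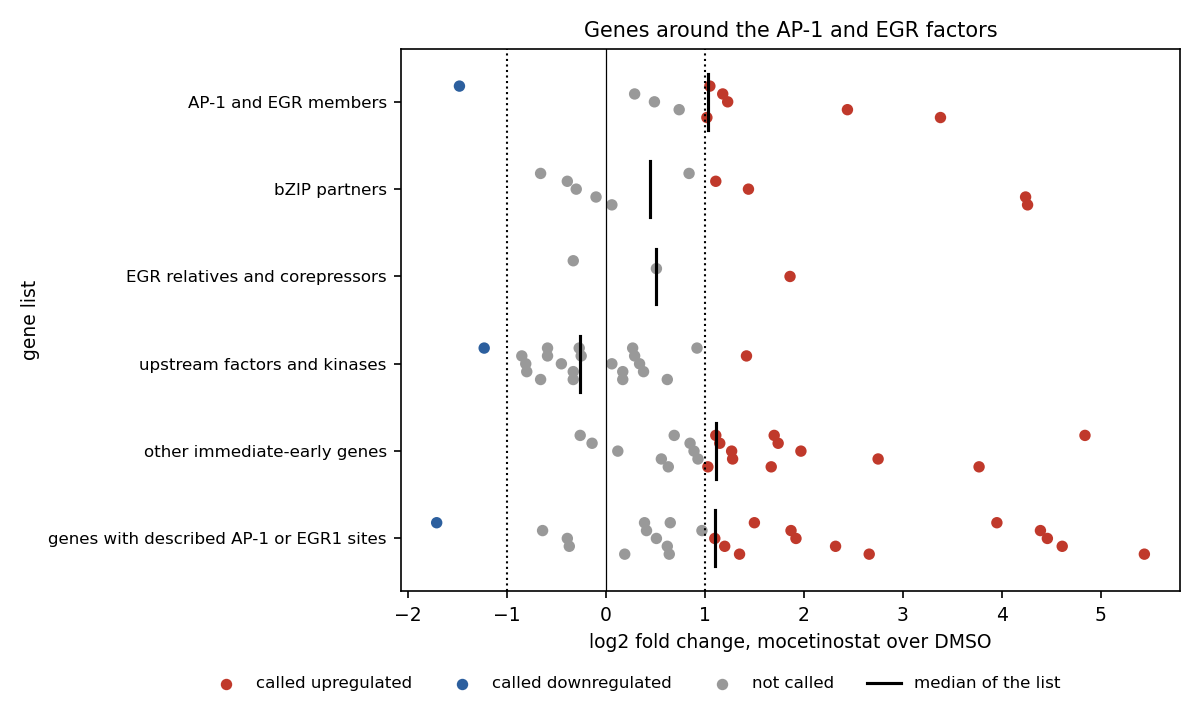
Log2 fold change, mocetinostat over DMSO, of each tested gene (points) in the 10 members and the 5 lists around them, with the median of each list as a black line and the fold threshold dotted. Points are red for upregulated, blue for downregulated, and grey for not called. The medians lie at 1.03 for the members, 1.11 for the other immediate-early genes, and -0.26 for the upstream factors and kinases.

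Over the 6 samples, the genes most like *FOS* in log2 CPM were *TBC1D1* (Pearson r = 0.9997), *GAS1* (0.9994), and *TMEM189* (0.9991), among 10241 genes with a mean of at least 10 CPM. Those most like *EGR1* were *PDIA5* (0.9992), *MORC4* (0.9987), and *KLHL29* (0.9980). Such values were common because 3 treated and 3 untreated samples lie apart for many genes, with 1532 genes above 0.95 for *FOS* and 1480 for *EGR1*. They are given as a description of 6 samples that differ in treatment and in depth, without a test.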

How the data were processed

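The authors deposited 1 table of raw gene counts for the 6 samples. Per their methods, ribosomal RNA was depleted, single reads were trimmed, cleared of ribosomal sequence with SortMeRNA, aligned to GRCh38 with STAR 2.6.1d, and assigned to genes with featureCounts 1.6.4. The strand setting is not given in the sources used here. Library totals ranged from 1619344 to 11031132 counts. All columns were matched to samples by name.

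From the deposited counts, edgeR 4.0.16 (limma 3.58.1, R 4.3.3) kept 13966 genes with filterByExpr at a minimum count of 10, computed TMM factors, and fitted treatment across all of them by quasi-likelihood, with Benjamini-Hochberg adjustment over all genes tested. The script was tested on simulated data. The thresholds on adjusted p and fold were those of the study (0.05 and a log2 fold change of 1). CPM used TMM library sizes. Gene positions and exon lengths are from GENCODE 44, to which 99.5% of the table was matched, and upstream sequences are from RefSeq on GRCh38.p14. *FOSL1* has no entry among the latter. Ratios were compared by exact permutation. Figures were drawn with matplotlib 3.10.9 in Python 3.11.15.

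Members and lists were chosen with earlier results of these data known. Named besides the members were all EGR relatives and corepressors, the 3 highest and 3 lowest genes of each other list among those with at least 10 CPM in a condition, *GAPDH*, and the 3 genes most like *FOS* and *EGR1*. Of the genes this rule takes, 2 are not reported here. Cell type markers are named as a check of the line. The 15 alternatives were DESeq2 1.42.0, RLE factors, library size only, *GAPDH* scaling, no filter, 10 counts in every sample, glmTreat, a replicate block, thinning to 1619344 counts, and leaving out each of the 6 samples, which was also done for the ratios.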

Additional observations from a re-analysis of the deposited data

How the results depend on the processing

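Over the 15 alternatives, no member changed direction. Members called upregulated numbered 6 in the reported fit, 4 under DESeq2, 2 under glmTreat, 2 without a filter, and 4 to 6 when a sample was left out. They numbered 5 after thinning, 5 with 10 counts in every sample, and 8 under *GAPDH* scaling. Members called downregulated numbered 0 under *GAPDH* scaling. Over all genes, upregulated calls numbered 1620 with 10 counts in every sample and 4425 under *GAPDH* scaling, against 2827 reported. Downregulated calls numbered 704, 284, 465 under glmTreat, and 2120 without a filter, against 1142. Of all calls, 71.2% were upregulated in the reported fit, 94.0% under *GAPDH* scaling, 81.6% under glmTreat, and 60.2% without a filter, where the median of the genes tested in the reported fit moved by -0.25. Leaving out a sample gave 2842 to 3215 upregulated and 1173 to 1267 downregulated genes. Fewer genes were tested with 10 counts in every sample (10876).

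Upregulated bZIP partners numbered 2 with 10 counts in every sample. Upregulated EGR relatives and corepressors numbered 0 with 10 counts in every sample, 2 under *GAPDH* scaling, and 0 after thinning. Upregulated upstream factors and kinases numbered 2 with 10 counts in every sample and 3 under *GAPDH* scaling, and downregulated ones 0 under *GAPDH* scaling, 0 under glmTreat, and 4 without a filter. The log2 fold change turned under *GAPDH* scaling for *NAB2* (0.21), *MAFG* (0.15), *ATF2* (0.24), *MYC* (0.27), *MCL1* (0.39), and *TGFB1* (0.14), after thinning for *NAB2* (0.03), and without a filter for *KLF10* (-0.13). *GAPDH* scaling moved the median gene by 0.53. For the other changes the cause was not tested.

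Replicate numbers are shared between conditions, but same-numbered samples did not deviate together (correlations 0.01, 0.01, and -0.02), so the numbers were not taken as pairs. With the replicate block, 6 members were upregulated and 1 downregulated, and 2798 and 1133 genes over the whole table. Without a filter, *FOSL2* and *JUNB* also missed the p threshold. Leaving out a sample, an alternative chosen for the ratios after seeing the data, turned no ratio and gave log2 differences between -2.90 and -1.73 for *EGR1* to *EGR2*. Few counts limit *EGR2*, *FOS*, *FOSB*, and *EGR3*, and the smallest library had 1619344 counts.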
